A study of Homo sapiens with 6 samples.

Results

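RNase T1 at 1/1 U/µL and at 0.25/0.25 U/µL, given as the concentration in the lysate and on the beads, was compared in the IR-PAR-CLIP of IGF2BP3. These are 2 of the 6 libraries of the series, chosen by their RNase, and they hold 73441 of its 244645 read clusters. HCT116 cells, a human colorectal carcinoma line carrying the Tet-OsTIR1-PURO construct, were labeled with 4-thiouridine at 100 µM for 15 h and crosslinked at 365 nm, which holds for each library. IGF2BP3 was precipitated with a polyclonal antibody that, by the study's own description, also takes some of the paralog IGF2BP2. RNase I was used for the other libraries, of which 3 were of IGF2BP3, at 0.05/0.05, 0.1/0.025 and 0.05/0.025 U/µL, and the last was a precipitation with IgG as a control at 0.1/0.025 U/µL. Each condition has 1 library, so no difference between conditions was tested, and the 95% intervals given for ratios cover counting error only.

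The RNase T1 libraries differed in more than the enzyme concentration. The RNA of 1/1 U/µL was electroeluted from the gel and that of 0.25/0.25 U/µL was extracted from crushed gel. The clusters of 1/1 U/µL held 1157194 reads over 2295812 nt and those of 0.25/0.25 U/µL 182448 reads over 590283 nt, a ratio of 6.34 in reads. Concentration, gel extraction and depth cannot be told apart. For the RNase I library of 0.1/0.025 U/µL, the study's methods name crushed gel under a different lysate concentration than the labels give, so its gel extraction is an assumption here. Of the colorectal epithelial markers, 7 of 11 had a cluster at 1/1 U/µL and 2 of 11, EPCAM and CDH1, at 0.25/0.25 U/µL, with a summed level of 161 and 54.8 reads-per-million (RPM, relative to the cluster reads of the library), while 0 of 10 fibroblast and leukocyte markers had one in either library. The IgG library had 25 clusters with 324 reads, and 13 of the 1980 genes compared here had an IgG cluster.

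IGF2BP3 is a cytoplasmic RNA-binding protein with RRM and KH domains that binds mainly the 3′UTRs of mRNAs and is known for stabilising them in tumours and in development. RNase T1 cuts single-stranded RNA after guanosine, so the ends of its fragments lie at G, and a footprint that contains G can be cut within. A crosslinked 4-thiouridine is read as C, and T-to-C conversions therefore mark the contact with the protein. A cluster is a stretch of overlapping reads with such conversions, and the smallest clusters had 2 reads and 2 conversion positions. A gene or site without a cluster is therefore not a gene or site without reads. No ratio was formed for a gene or a single site that lacked a cluster in a library compared. Gene ratios are formed from sums over called clusters, however, so a site of a gene adds no reads to a library in which it has no cluster.

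To show what the concentration comparison looks like at single sites, short clusters found in both libraries are printed, because they carry the nucleotides that one library has and the other lacks. Sequences are those of the 0.25/0.25 U/µL clusters from 5′ to 3′ on GRCh38, and capitals mark the nucleotides absent from the 1/1 U/µL cluster at the site. The first 3 are the pairs of at most 30 nt with the most reads at 0.25/0.25 U/µL in which the 1/1 U/µL cluster lay inside and was shorter by at least 3 nt. They are in the PABPC1 pseudogene PABPC1P4 at chr12:63823074-63823103 on the plus strand, outside annotated genes at chr4:73100167-73100194 on the plus strand, and in the pseudogene PABPC1P2 at chr2:146588441-146588468 on the plus strand. Reads of the pseudogenes cannot be told apart from those of near-identical copies.
PABPC1P4: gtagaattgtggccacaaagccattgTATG
Chromosome 4 site: accaaatgttcatcctcattgCCTCCTG
PABPC1P2: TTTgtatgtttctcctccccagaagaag
In 3′UTRs, the pairs of the same kind with the most reads included TCEAL8 at chrX:103253527-103253555 and MRPL9 at chr1:151759693-151759721, both on the minus strand and both shown after their values were seen.
TCEAL8: AcctccattttacttttaatcatctgATG
MRPL9: TACTTgcctcattctcatcatccaaactg
Pairs identical in both libraries are shown by an intronic site at chr10:26014368-26014392 and another at chr22:42046955-42046978, both on the plus strand, and by the 3′UTR of ATXN3 at chr14:92063715-92063743 on the minus strand, of which the last was added after its values were seen.
Chromosome 10 site: gttttaaacttcatataactttcag
Chromosome 22 site: gtatctaactcatttccaaacatg
ATXN3: gttttcattattttcccacaattcttttg

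The PABPC1P4 site had 140 reads at 0.25/0.25 U/µL, or 767 RPM, and 96 reads at 1/1 U/µL, or 83.0 RPM, and its shorter cluster ended after an internal G, 4 nt before the end of the longer one. At the chromosome 4 site the last 7 nt were missing, again after a G, and the level was 159 against 17.3 RPM. TCEAL8, with a missing first and last part of 1 and 3 nt, had 115 RPM at 0.25/0.25 U/µL and 44.1 at 1/1 U/µL. MRPL9 had 87.7 and 41.5 RPM. The sites without a changed end were also lower at 1/1 U/µL, with 236 against 144 RPM at the chromosome 10 site, 214 against 124 at the chromosome 22 site and 153 against 83.0 at ATXN3. Other identical pairs in 3′UTRs differed by as much as the trimmed TCEAL8, such as EIF2AK1, with 153 against 58.8 RPM, and NFIC, with 148 against 56.2, so these single sites do not set trimmed and identical clusters apart. In each of the printed identical clusters, G stands at the first and the last nucleotide and nowhere between. This does not hold for identical clusters in general: those of EIF2AK1 and NFIC each have a G between their ends, and that of NFIC starts with A.

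Over the 9393 pairs of clusters in which each overlapped just the other, shortening was not the most frequent outcome. The clusters were identical in 982 pairs, or 10.5%. The 1/1 U/µL cluster lay within the longer 0.25/0.25 U/µL cluster in 23.8%, the reverse held in 43.0%, and the ends were staggered in 22.7%. The last nucleotide was shared in 41.8% and the first in 23.3%. The median length was 40 nt at 1/1 U/µL and 36 nt at 0.25/0.25 U/µL. In 1222 of the pairs in which the 1/1 U/µL cluster stopped short of the end of its partner, its last nucleotide was G in 92.7%. This is close to the 94.7% of all clusters at 1/1 U/µL. In 1686 of the pairs in which it began after the start of its partner, the nucleotide before it was G in 51.1%, against 54.3% of all clusters at 1/1 U/µL. Among the pairs above 50 RPM in both libraries, the 0.25/0.25 U/µL cluster lay within the other in 53.8% of 1593.

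The read ratio at the same site moved with its G content. With up to 5% G in the 0.25/0.25 U/µL cluster, its last nucleotide left out, the median log2 ratio of RPM at 1/1 over 0.25/0.25 U/µL was −0.53 over 2880 pairs. It was −1.01 between 5% and 10%, −1.30 between 10% and 15%, −1.54 between 15% and 20% and −1.55 above 20%, the last over 895 pairs. The medians were negative in each class. A pair needs a cluster in the shallower library, and the part of this in the sign was not tested. Among pairs above 50 RPM in both libraries the medians were also negative, from −0.20 at up to 5% G to −0.96 between 15% and 20%. That level takes 9.12 reads at 0.25/0.25 U/µL and 57.9 at 1/1 U/µL. Clusters above it held 71.6% and 32.7% of the cluster reads, so these pairs cannot settle the sign either. Spearman's rho across the pairs was −0.37, and it was −0.35 for clusters up to 40 nt, −0.41 for those with at least 20 reads at 0.25/0.25 U/µL, and −0.38 for pairs above 50 RPM in both libraries. With the G share of the 1/1 U/µL cluster in its place it was −0.17. Length moved with these classes as well: the median 0.25/0.25 U/µL cluster had 27 nt at up to 5% G and 43 nt above 20%.

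RNase I does not share the preference for G, and its libraries served as the comparison. Between RNase I 0.05/0.05 and 0.05/0.025 U/µL, which differ in gel extraction in the same way and in cluster reads by a ratio of 3.52, the median log2 ratio of paired clusters stayed between −0.42 and −0.54 over the same classes of G share, and rho was −0.01 over 18506 pairs. Between the RNase I libraries of 0.1/0.025 and 0.05/0.025 U/µL, both taken as crushed-gel libraries and with 803490 and 670712 cluster reads, the medians went from 0.06 at up to 5% G to −0.26 above 20%, with a rho of −0.09 over 16363 pairs, which was −0.18 both with at least 20 reads in the denominator library and above 50 RPM in both. Under the same filters rho was 0.03 and 0.02 for the RNase I pair that differs in gel extraction. The pairs are sites of the same transcripts and are not independent, so these values are descriptions without a test.

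**Figure D1:**
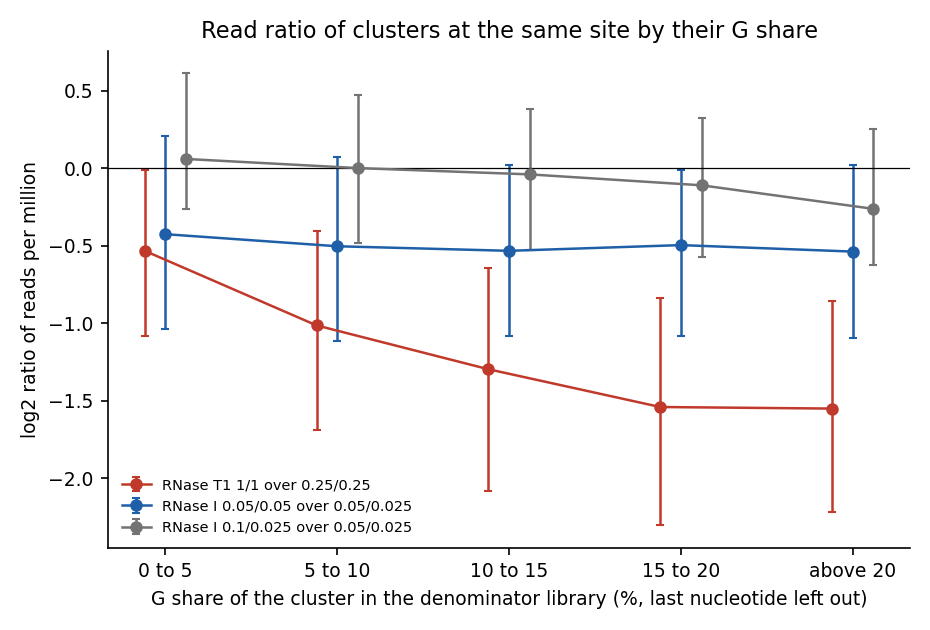
Median log2 ratio of RPM (vertical axis) of clusters paired at the same site, by the G share in percent of the cluster in the denominator library (horizontal axis), with bars from the lower to the upper quartile. The RNase T1 medians go from −0.53 to −1.55, and those of RNase I 0.05/0.05 over 0.05/0.025 U/µL stay between −0.42 and −0.54.

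The clusters that the libraries did not share were of another kind. At 1/1 U/µL, 48022 clusters, or 80.2%, had no overlap at 0.25/0.25 U/µL, and they held 52.0% of its cluster reads. They were short, with a median of 31 nt, poor in G, with a mean of 3.41 internal G, and small, with a median of 9 reads. The 11851 overlapping clusters of that library had a median of 41 nt, a mean of 6.62 internal G and a median of 29 reads. At 0.25/0.25 U/µL, 1754 clusters had no overlap at 1/1 U/µL, and they were richer in G than the overlapping ones, with a mean G share of 14.04% against 10.7% and a mean of 5.48 against 5.26 internal G. They had 0.616 conversions per read, against 0.543.

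The difference in G content ran in opposite directions for whole libraries and within genes. Over all clusters, the mean number of internal G was 4.05 at 1/1 U/µL and 5.29 at 0.25/0.25 U/µL, the mean G share 9.23% and 11.1%, and the share without any internal G 21.5% and 10.8%. Within the 1468 genes with at least 3 clusters in each library, the G share was higher at 1/1 U/µL in 62.1% of the genes, with a median difference of 0.81 percentage points. Weighted by reads, the median difference was 0.04 percentage points and 50.5% of the genes were higher.

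The cluster length did not have a stable direction either. All clusters had a median of 33 nt at 1/1 U/µL and 37 nt at 0.25/0.25 U/µL, and the median difference within genes was −1 nt, with 52.6% of the genes shorter at 1/1 U/µL. With clusters above 10 RPM it was 4 nt in the other direction. Among the genes with the largest differences, BZW1 was shorter at 1/1 U/µL. BZW1, a regulator of translation initiation, had a median length of 40 nt over 22 clusters at 1/1 U/µL and 122.5 nt over 6 at 0.25/0.25 U/µL. LDHA, lactate dehydrogenase, had 67 nt and 131 nt, and the mitochondrial ATP synthase subunit MT-ATP6 57 nt and 115.5 nt. In the other direction, the largest differences were those of PTMS, with 130 nt at 1/1 U/µL and 46 nt at 0.25/0.25 U/µL, of BSG, which encodes basigin, with 147.5 nt and 68 nt, and of ATF4, a transcription factor of the stress response, with 119 nt and 47.5 nt. These genes had 3 to 22 clusters in a library, so a median rests on few of them.

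Conversions were less frequent at 1/1 U/µL in most genes. Over the libraries there were 0.511 conversion events per read at 1/1 U/µL and 0.547 at 0.25/0.25 U/µL, and conversions made up 5.65% and 6.18% of all events at T. Across the 1980 genes compared below, the conversions per read were lower at 1/1 U/µL in 69.1%, with a median difference of −0.047. Paired clusters were more evenly split. Over the 9393 pairs the median was 0.531 at 1/1 U/µL and 0.571 at 0.25/0.25 U/µL, with 54.5% of the pairs lower at 1/1 U/µL. Among the 1593 pairs above 50 RPM in both libraries the medians were nearly the same, 0.470 and 0.471, with 51.9% lower. FOXN3, a forkhead transcription factor, had 0.468 conversions per read at 1/1 U/µL and 1.14 at 0.25/0.25 U/µL, CNN2, a calponin, 0.414 and 1, and SLC5A3, a myo-inositol transporter, 0.490 and 1. In the other direction, SS18 had 0.734 and 0.333, ZBTB10 0.487 and 0.1, and SMURF2, a ubiquitin ligase of TGF-β signalling, 0.628 and 0.25. The value at 0.25/0.25 U/µL came from 1 cluster of 6 to 20 reads in each of these genes except SS18, which had 2 clusters with 21 reads.

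To ask which genes shift with the concentration, the reads of all clusters on the exons of a gene were summed and divided by the cluster reads of the library, in RPM. Clusters in both libraries were found for 3627 genes, at 1/1 U/µL only for 5096 and at 0.25/0.25 U/µL only for 89. Of the 3627, the 1980 with a mean of at least 100 RPM were compared, among them 1881 protein-coding genes and 45 lncRNAs. At that level a gene has 116 reads at 1/1 U/µL and 18.2 at 0.25/0.25 U/µL. The median log2 ratio of 1/1 over 0.25/0.25 U/µL was −0.03 and its SD across genes 1.15. At least 2-fold higher at 1/1 U/µL were 365 genes, or 18.4%, and at least 2-fold lower 318, or 16.1%. The counting interval lay beyond 2-fold for 160 and 164 of them. The genes at least 2-fold higher had a median of 17 clusters at 1/1 U/µL and 2 at 0.25/0.25 U/µL. Those at least 2-fold lower had 6.5 and 5. Sites with a cluster in 1 library only thus enter these ratios.

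The balance of these counts changed when small clusters were left out. With clusters above 10 RPM only, a level that each cluster at 0.25/0.25 U/µL exceeds by its 2 reads while 79.4% of the reads at 1/1 U/µL are in clusters above it, 177 of 1780 genes, or 9.94%, were at least 2-fold higher and 422, or 23.7%, at least 2-fold lower, around a median log2 ratio of −0.33. Centred on that median, the counts were 268 higher and 231 lower.

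Among the genes with the most reads, EREG, which encodes the EGF receptor ligand epiregulin, had nearly the same level in both libraries, with 4514 RPM at 1/1 U/µL and 4774 at 0.25/0.25 U/µL. The log2 ratio was −0.08, with an interval of −0.18 to 0.02. KITLG, the ligand of the KIT receptor, had 4324 and 7646 RPM and a log2 ratio of −0.82. The membrane protein gene DCBLD2 had 4183 and 8792 RPM, and CDKN1A, the cyclin-dependent kinase inhibitor p21, 2849 and 6161. PTP4A1, a protein tyrosine phosphatase whose clusters all overlap an exon of another annotated gene as well, had 3885 and 10644, and PABPC1, the cytoplasmic poly(A)-binding protein, 2001 and 9197. At least 2-fold lower at 1/1 U/µL were 4 of these 6 genes, against 16.1% of all genes compared. The log2 ratio was lower in genes with more reads in general, with a rho of −0.32 and an r of −0.25 with the mean RPM over the 1980 genes, and its median was −0.25 over the 1091 genes with a mean of at least 200 RPM. Of the 6 genes with the most reads, PABPC1 had the lowest log2 ratio, −2.20 with an interval of −2.29 to −2.11. PTP4A1, PABPC1 and CDKN1A each had 1 IgG cluster.

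**Figure D2:**
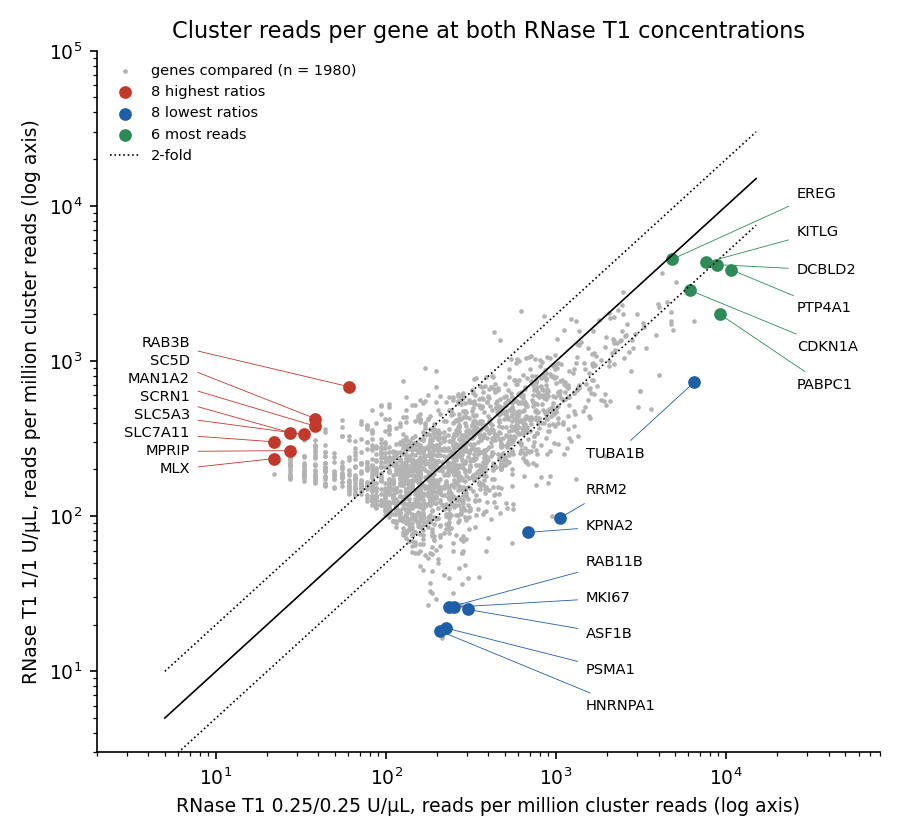
RPM of 1980 genes at RNase T1 0.25/0.25 U/µL (horizontal, log axis) and 1/1 U/µL (vertical, log axis); the solid line marks equal levels and the dotted lines 2-fold. The genes with the highest ratios have at most 60.3 RPM at 0.25/0.25 U/µL, while TUBA1B, among those with the lowest, has 6473.

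Of the 8 genes with the lowest ratios, 3 had over 500 RPM at 0.25/0.25 U/µL. TUBA1B, an α-tubulin, had 843 reads at 1/1 U/µL, or 728 RPM, and 1181 reads at 0.25/0.25 U/µL, or 6473 RPM. Its log2 ratio was −3.15, with an interval of −3.28 to −3.02, and it had 1 IgG cluster. RRM2, the small subunit of ribonucleotide reductase, had 97.7 and 1058 RPM and a log2 ratio of −3.44. KPNA2, an importin, had 78.6 and 679.6 RPM. In each of these 3 genes the library of 1/1 U/µL had fewer reads than the other, although its total was 6.34 times as large.

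The histone chaperone gene ASF1B had 25.1 RPM at 1/1 U/µL and 301 at 0.25/0.25 U/µL, a log2 ratio of −3.59 with an interval of −4.29 to −2.91. PSMA1, a proteasome subunit, had 22 reads at 1/1 U/µL and 41 at 0.25/0.25 U/µL. In RPM, HNRNPA1, a splicing regulator, had 18.1 and 208, MKI67, the proliferation antigen Ki-67, 25.9 and 252, and RAB11B, a small GTPase of recycling endosomes, 25.9 and 236. The log2 ratios of these 4 genes lay between −3.56 and −3.18. Each of the 8 genes with the lowest ratios had 1 to 13 clusters per library, and the median 3′UTR of all genes at least 2-fold lower was 1172 nt long.

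The 8 genes with the highest ratios had 9 to 49 clusters at 1/1 U/µL and 1 or 2 at 0.25/0.25 U/µL. SLC7A11, the cystine and glutamate antiporter, had 349 reads in 31 clusters at 1/1 U/µL, or 302 RPM, and 4 reads in 1 cluster at 0.25/0.25 U/µL, or 21.9 RPM. Its log2 ratio of 3.78 has an interval of 2.41 to 5.67. RAB3B, a small GTPase of exocytosis, had 791 reads in 49 clusters and 11 reads in 2 clusters, with a log2 ratio of 3.50 and an interval of 2.66 to 4.51. SCRN1 had 345 and 27.4 RPM, SC5D, an enzyme of cholesterol synthesis, 425 and 38.4, and MLX, a partner of glucose-responsive transcription factors, 235 and 21.9. SLC5A3 had 337 and 32.9 RPM, the mannosidase gene MAN1A2 380.2 and 38.4, and MPRIP, which binds myosin phosphatase, 264 and 27.4. The intervals of these genes are wide because they rest on 4 to 11 reads at 0.25/0.25 U/µL.

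Genes with clusters in 1 library only were mostly those of the deeper library. The 5096 genes with clusters at 1/1 U/µL only had a median of 17 reads, and 30 of them had a mean of at least 100 RPM. SGMS2, a sphingomyelin synthase, led them with 470 reads in 27 clusters, or 406 RPM, followed by MOSMO with 315, the ATP synthase subunit MT-ATP8 with 309, most of it in clusters shared with MT-ATP6, and the transcription factor gene CREB3L2 with 307. The 89 genes with clusters at 0.25/0.25 U/µL only were 2.40% of its genes and had a median of 6 reads. Among the highest levels were 93.2 RPM for UCK1, a uridine-cytidine kinase, 87.7 for the mitochondrial ribosomal gene MRPL58 and 71.3 for TUBA8, whose cluster also overlaps another gene.

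Gene lists of housekeeping transcripts had negative median log2 ratios, beside a median of −0.03 for all genes compared and of −0.25 for those with a mean of at least 200 RPM. Of all genes compared, 51.1% were negative, 16.1% at least 2-fold lower and 18.4% at least 2-fold higher, and the counts of the lists are to be read against these shares. Of the cytosolic ribosomal proteins, 27 of 79 passed the filter, 24 of them with a negative ratio, 13 at least 2-fold lower and 1 at least 2-fold higher, around a median of −0.98. RPL38 had 59.6 RPM at 1/1 U/µL and 285 at 0.25/0.25 U/µL, RPL28 103 and 373, and RPL15, the member with the most reads, 976 and 1452. On the other side were RPS20, with 223 and 49.3, RPL14, with 411 and 225, and RPS29, with 275 and 164. The translation factors had a median of −0.83, with 8 of 24, or 33.3%, at least 2-fold lower and 0 higher, led by the initiation factor EIF2S2 with 37.2 and 181 RPM, while the elongation factor EEF2 had 2389 and 4511.

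The chaperones had a median of −0.93, with 6 of 16 at least 2-fold lower, or 37.5% against 16.1% of all genes compared, such as HSP90AA1 with 442 RPM at 1/1 U/µL and 1557 at 0.25/0.25 U/µL. HSPA8, with 277 and 230.2, was on the other side. The glycolytic enzymes and transporters had a median of −1.09 and 6 of 11 at least 2-fold lower, among them PGAM1, phosphoglycerate mutase, with 318 and 1195, and ENO1, enolase, with 123 and 433. The actins, tubulins and actin regulators had a median of −0.99 and 7 of 14 at least 2-fold lower. The α-tubulin genes TUBA1C, with 245 and 1935 RPM, and TUBA1A, with 179 and 817, were low as TUBA1B was, and reads of these similar genes may be divided between them. TPM4, a tropomyosin, had 474 and 285.

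The mitochondrially encoded genes had a median of −0.98, each of the 13 compared had a negative ratio, and 5 were at least 2-fold lower, or 38.5% against 16.1% of all genes compared. MT-ND1, a subunit of complex I of which 73.5% of the reads lie in clusters shared with another gene, had 807 RPM at 1/1 U/µL and 4039.5 at 0.25/0.25 U/µL, and the 16S rRNA MT-RNR2 1463 and 3842. All clusters on the mitochondrial chromosome made up 0.984% of the cluster reads at 1/1 U/µL and 2.42% at 0.25/0.25 U/µL. With RNase I the share was 1.18% at 0.05/0.05 U/µL, 1.75% at 0.1/0.025 U/µL and 2.42% at 0.05/0.025 U/µL.

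The hnRNP and SR proteins had a median of −0.56, with 5 of 25 at least 2-fold lower and 2 higher. The 20% at least 2-fold lower lies near the 16.1% of all genes compared. PTBP1, a splicing repressor, had 441 RPM at 1/1 U/µL and 1173 at 0.25/0.25 U/µL, and SRSF6 213 and 756, whereas SRSF7 had 188 and 54.8. Cyclins and cell cycle kinases had 5 genes compared, of which CDK1 and CDKN1A were at least 2-fold lower, around a median of −0.76. Replication-dependent histones, whose mRNAs lack a poly(A) tail, had clusters in 2 of 62 genes at 1/1 U/µL and in 5 at 0.25/0.25 U/µL, and 0 passed the filter. Over all genes, clusters were found in 8723 at 1/1 U/µL and in 3716 at 0.25/0.25 U/µL. The summed level of the histones was 15.6 and 214 RPM, from genes with 5 to 12 reads each. Of the small structural RNAs RN7SK alone was compared, and it is annotated as 2 overlapping genes that take the same reads, with 69.1 and 137 RPM.

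The RNAs known as clients of the IGF2BP family were closer to the median of all genes. Of 16, 8 were compared, with a median of −0.36, 1 at least 2-fold lower and 1 at least 2-fold higher. These are 12.5% each way, near the 16.1% and 18.4% of all genes compared. The median 3′UTR of the clients was 3037 nt, and the genes compared with a 3′UTR of 2910 to 4486 nt had a median of 0.38. ACTB, the β-actin mRNA, had 154 RPM at 1/1 U/µL and 389 at 0.25/0.25 U/µL. MYC had 310.2 and 548, CCND1, cyclin D1, 2325 and 3946, and HMGA2 1562 and 2450. CD44 had 1563 and 1650, a log2 ratio of −0.08 with an interval of −0.25 to 0.10. CDK6 had 1034 and 751, and IGF2BP3 itself 242 and 115, the member at least 2-fold higher, with an interval of the log2 ratio of 0.43 to 1.79.

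**Figure D3:**
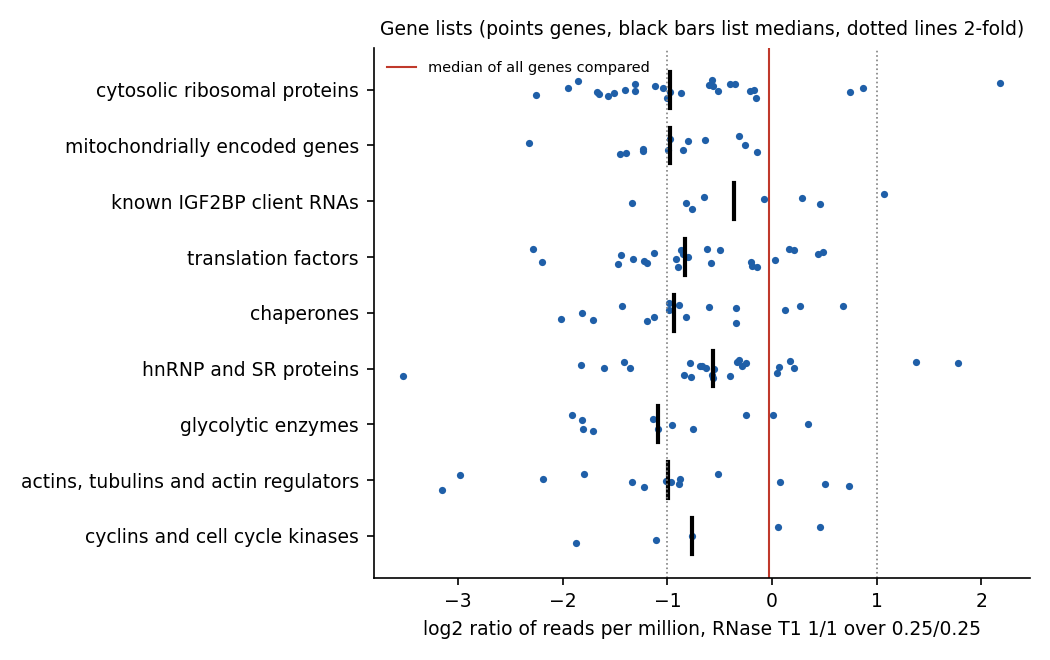
log2 ratio of RPM at RNase T1 1/1 over 0.25/0.25 U/µL (horizontal axis) of the genes compared in each list (rows, for lists with at least 5 such genes); black bars are list medians and the red line the median of all 1980 genes. The medians of the lists lie between −1.09 for glycolytic enzymes and −0.36 for IGF2BP clients, left of the red line at −0.03.

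The ratio moved with the length of the 3′UTR. The genes were put in 5 groups of like size. In the group with the shortest 3′UTRs, up to 1108 nt in the canonical transcript, the median log2 ratio was −0.68, and 33.3% of the genes were at least 2-fold lower at 1/1 U/µL and 4.53% at least 2-fold higher. In the next groups it was −0.24, −0.02 and 0.38, and in the group with the longest, from 4490 nt, it was 0.70, with 4.28% at least 2-fold lower and 39.0% higher. Across 1873 genes Spearman's rho with the length was 0.47 and Pearson's r 0.40, and rho was 0.42 with clusters above 10 RPM and 0.18 with those above 50. The number of clusters moved with the length: the median went from 6 to 21 per gene over the groups at 1/1 U/µL and lay at 3 or 4 in each group at 0.25/0.25 U/µL. The lists of ribosomal proteins and of chaperones had median 3′UTRs of 496 and 878 nt, against 2389 nt for the genes compared. The median was 1706 nt for the translation factors, 2079 nt for the hnRNP and SR proteins and 3037 nt for the IGF2BP clients. Their median log2 ratios of −0.83, −0.56 and −0.36 rose in the order of these lengths and were also negative. The lowest list median, −1.09, was that of the glycolytic list, with a median 3′UTR of 923 nt. The part of 3′UTR length in the list medians was not tested.

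**Figure D4:**
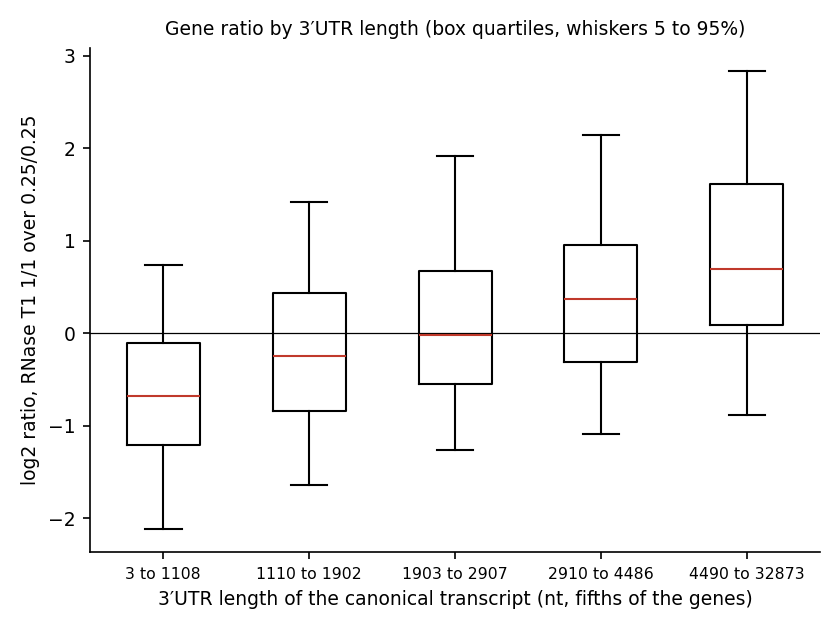
log2 ratio of RPM at RNase T1 1/1 over 0.25/0.25 U/µL (vertical axis) of 1873 genes in 5 groups by the 3′UTR length in nt of the canonical transcript (horizontal axis), as boxes of the quartiles with the median in red and whiskers from the 5th to the 95th percentile. The medians go from −0.68 in the shortest group to 0.70 in the longest.

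With the G share of the 3′UTR the log2 ratio had a rho of −0.12 and an r of −0.11, and the median was 0.08 in the group with the least G, again of 5, and −0.29 in that with the most. The G share of the clusters on the same genes in the RNase I library of 0.1/0.025 U/µL, which uses neither RNase T1 library, had a rho of −0.33 and an r of −0.32 over the 1980 genes. From the lowest to the highest of 5 groups by that share the median log2 ratio was 0.45, 0.21, 0.12, −0.18 and −0.67. The same share had a rho of −0.20 with the ratio of RNase I 0.05/0.05 over 0.05/0.025 U/µL. The median 3′UTR was 2936 nt in the lowest group and 1376 nt in the highest, so G share and length moved together. These correlations run across genes, which share libraries and depth and are not independent replicates.

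The RNase T1 ratio moved with that of RNase I. Between RNase I 0.05/0.05 and 0.05/0.025 U/µL, 146 of 2253 genes, or 6.48%, were at least 2-fold higher and 84, or 3.73%, at least 2-fold lower, and the SD of the log2 ratio was 0.68. Between the libraries of 0.1/0.025 and 0.05/0.025 U/µL these were 19 of 2159, or 0.88%, and 20, or 0.926%, with an SD of 0.39. The RNase T1 ratio had a rho of 0.72 and an r of 0.69 with the former over 1974 genes, and a rho of 0.37 and an r of 0.36 with the latter. No library is shared between the RNase T1 and the RNase I ratios. The former RNase I pair shares with the RNase T1 pair an electroelution in the numerator, crushed gel in the denominator and a deeper numerator. The RNase concentration on the beads was also higher in the numerator of both pairs. The part of each in the correlation was not tested. With clusters above 10 and above 50 RPM rho was 0.56 and 0.49 for the former, and 0.18 and 0.15 for the latter.

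Of the 365 genes at least 2-fold higher with RNase T1 1/1 U/µL, 362 had a value in the RNase I pair that differs in gel extraction, and 91.4% of these were higher with RNase I 0.05/0.05 U/µL, against 48.3% of all genes compared. Of the 318 at least 2-fold lower, 317 had a value and 93.1% were lower, against 51.7% of all. TUBA1B had 1293 RPM with RNase I 0.05/0.05 U/µL and 5697 with 0.05/0.025 U/µL, and RRM2 70.7 and 437. MKI67 had 56.3 and 523, and ASF1B 58.4 and 417. In the library of 0.1/0.025 U/µL, they had 4768, 454, 805 and 346 RPM. In these 4 genes the levels were low with RNase T1 1/1 and RNase I 0.05/0.05 U/µL and high in the other IGF2BP3 libraries. The low libraries were the electroeluted ones. Each of them also had the highest on-beads concentration and the most cluster reads of its enzyme, and these cannot be told apart. RAB11B did not follow this order, with 159 in the RNase I 0.05/0.05 U/µL library and 119 and 158 in the other RNase I libraries. On the other side, SLC5A3 had 188 with RNase I 0.05/0.05 U/µL and 32.8 with 0.05/0.025 U/µL, while MLX had 217 and 203.

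**Figure D5:**
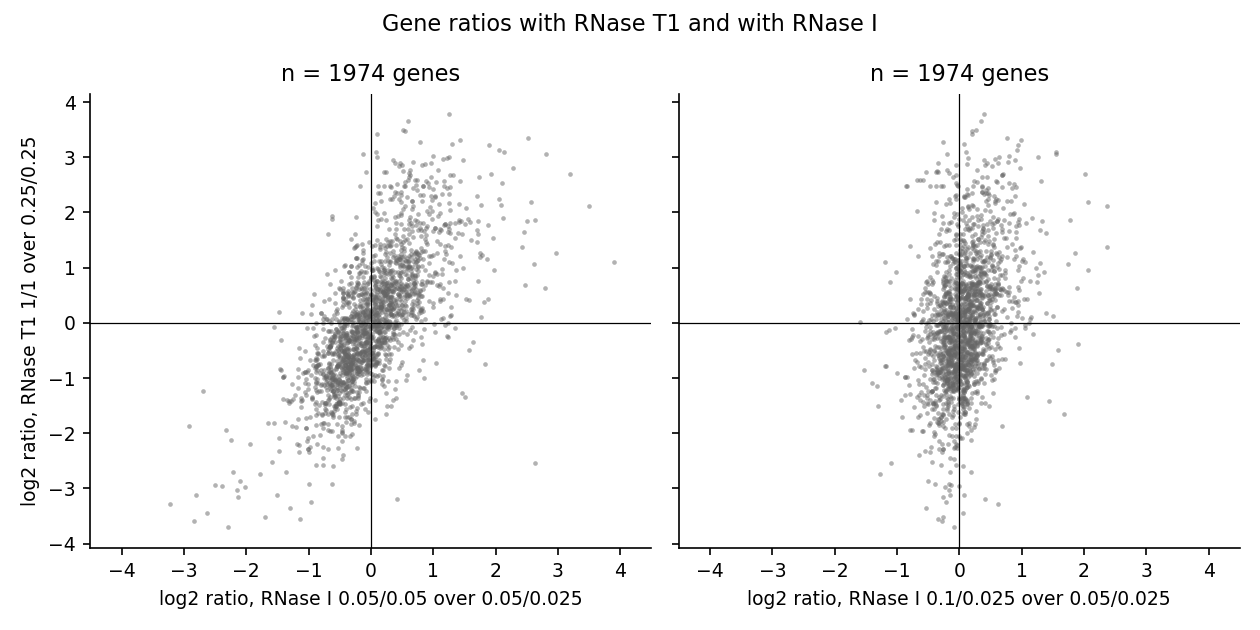
log2 ratio of RPM of 1974 genes with RNase T1 1/1 over 0.25/0.25 U/µL (vertical axes) against that with RNase I 0.05/0.05 over 0.05/0.025 U/µL (left) and RNase I 0.1/0.025 over 0.05/0.025 U/µL (right). The points follow a rising band on the left, with a Spearman's rho of 0.72, and a wider one on the right, with 0.37.

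A gene was a target where 1 cluster had more than 10 RPM and more than 0.5 conversion events per read. At this level each cluster at 0.25/0.25 U/µL passes on its reads, so a target can be missed there on reads only for want of a cluster. Of the 1854 genes that were targets at 1/1 U/µL alone, 1407, or 75.9%, had no cluster at 0.25/0.25 U/µL, and the other 447 had one above 10 RPM without enough conversions in it. Of all genes with a cluster at 1/1 U/µL, 58.4% had none at 0.25/0.25 U/µL. Of the 537 genes that were targets at 0.25/0.25 U/µL alone, 55, or 10.2%, had no cluster at 1/1 U/µL, beside 2.40% of all genes with a cluster at 0.25/0.25 U/µL. Another 173 had clusters below the level, and 309, or 57.5%, had one above it that lacked the conversions. The share missed on reads was thus 75.9% and 42.5%, but with more than 20 RPM as the level it was 58.0% and 56.6%. Targets of both libraries have a cluster in both and are left out of the 1854 and the 537 genes. This choice raises their shares without a cluster, so the shares over all genes are not a like comparison.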

How the data were processed

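IR-PAR-CLIP clusters of IGF2BP3 in HCT116 cells were analysed. Per the submitters' processing notes and the study's methods, the authors trimmed reads with UMI-tools 1.1.1 and Trimmomatic 0.30, aligned them with bowtie 0.12.7 to GRCh38.p13, removed duplicates by molecular identifier and ran PARalyzer on every library to call clusters. Each deposited cluster carries raw counts of its reads and of events at T with and without conversion. A deposited mode score, a fraction, was not used.

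Clusters were assigned to genes of GENCODE release 44 by overlap with an exon on the same strand, each gene taking the full reads of a shared cluster, and counts were divided by the cluster reads of the library, since total library sizes were not used here. Ratios have exact Clopper-Pearson 95% intervals conditional on the sum of both counts. Computations used Python 3.11.15, pandas 2.3.3, scipy 1.17.1 and bedtools 2.31.1, and were tested on simulated data. Genes and gene lists were chosen with earlier results of these data known. Named were the 8 highest and 8 lowest ratios that stay at least 2-fold with clusters above 10 RPM, the 6 genes with the most reads, the 4 with the most in 1 library only, the 3 largest changes in conversions and length each way, and list members as examples, some picked after their values were seen. Some genes that the rule names are not reported here. With 1 library per condition, no test between conditions was made.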

Additional observations from a re-analysis of the deposited data

How the results depend on the processing

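No paired analysis was possible because each condition has 1 library, and for the same reason no library could be left out. The number of genes at least 2-fold higher at RNase T1 1/1 U/µL was 365, and it was 177 with clusters above 10 RPM, 1 with clusters that overlap one of the other library, 669 and 111 with a mean of at least 50 and 200 RPM, and 160 with the counting interval beyond 2-fold. The number at least 2-fold lower was 318, and it was 581 with overlapping clusters, 209 with a mean of at least 200 RPM and 164 by the interval. Overlapping clusters keep sites seen at low depth, and a filter in RPM removes clusters of the deeper library first, both by construction. Chosen after seeing the data, clusters above 50 RPM gave 35 higher and 488 lower, and 145 and 117 when centred on their median.

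Also chosen after seeing the data were the values above 50 RPM that follow. The difference in cluster length of −1 nt turned to 4 nt with clusters above 10 RPM, 4.5 nt with overlapping clusters, 19 nt above 50 RPM and 3 nt weighted by reads. The difference in G share of 0.81 percentage points was 0.15 above 10 RPM, 0.50 above 50 and 0.040 weighted by reads. The conversions per read differed by −0.058 above 10 RPM and by −0.041 with overlapping clusters. The rho with G content was −0.23 over all exons. The share of targets at 1/1 U/µL alone that missed the read criterion was 75.9%, and it was 97.9% with more than 0.25 conversions per read and 58.0% with more than 20 RPM. For targets at 0.25/0.25 U/µL alone it was 42.5%, 90.9% and 56.6%. The cause of the other changes was not tested. The median log2 ratios of the gene lists kept their sign when centred and with clusters above 10 RPM. At 0.25/0.25 U/µL 1 read is 5.48 RPM, which limits the genes with the highest ratios.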

Other observations

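Of the genes compared, 3 were at least 2-fold lower with RNase T1 1/1 than with 0.25/0.25 U/µL and at least 2-fold higher with RNase I 0.05/0.05 than with 0.05/0.025 U/µL, and 0 the other way round. They were chosen after their values were seen, and the difference between the enzymes was not tested. THRAP3, a factor of splicing and transcription, had 89.0 RPM at RNase T1 1/1 U/µL and 225 at 0.25/0.25 U/µL, and 93.5 with RNase I 0.05/0.05 U/µL and 32.8 with 0.05/0.025 U/µL. The mitochondrial glycine tRNA gene MT-TG had 37 reads at RNase T1 1/1 U/µL and 34 at 0.25/0.25 U/µL, a log2 ratio of −2.54, and 991 and 159.5 RPM with RNase I. Its 2342 reads with RNase I 0.05/0.05 U/µL are those of 1 cluster, and the neighbouring MT-CO3 has the same number in 1 cluster, so they cannot be assigned to MT-TG. The lncRNA ENSG00000280434 had 58.8 and 143 with RNase T1, and 49.5 and 17.9 with RNase I.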
